A study of Mus musculus with 2 samples.

Results

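Primary cilium genes that encode the transport machinery and the gate at the ciliary base, 39 in all, were described in the RNA of the embryonic mouse heart. The genes are named by symbol in a rule that uses no measured value, and were matched by gene identifier to the deposited gene tables, which list 43346 mouse genes, 21474 of them annotated as protein-coding. All 39 were found, and all passed the minimum of 20 summed counts used to compare the libraries. They comprise 7 core and 4 peripheral subunits of intraflagellar transport complex B (IFT-B), 6 subunits of complex A (IFT-A), 5 motor subunits, 6 BBSome subunits, 2 BBS chaperonin-like genes, 3 Arl GTPases and 6 transition zone genes.

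The tissue was heart of healthy B6NCrl embryos at embryonic day 11.5, with male and female embryos pooled and no allele or treatment named in the labels. Total RNA was sequenced in 2 libraries of this single group, replicate 1 (a pool of 109 embryos) and replicate 2 (a pool of unstated size), which held 34447169 and 25261719 expected counts in mouse genes. The labels give separate biosamples under the same donor identifier, so the spread between the libraries may be technical. With a single group, the data show which members the heart expressed, in what order, from which transcripts, and how far the libraries differed. All 6 cardiomyocyte, 4 endocardial, 4 epicardial and 5 cushion mesenchyme markers that were checked stood at 1 TPM or more in both libraries. So did all 4 erythroid and all 4 hepatic markers. Of the neural and crest, skeletal muscle and foregut markers, 2 of 4, 2 of 4 and 1 of 4 did. Passing 1 TPM thus does not set heart cells apart from others. TPM is transcript abundance corrected for transcript length and scaled to a fixed sum per library, and it is given below for replicate 1 and then replicate 2. In pooled tissue, fewer cells with a cilium and less RNA per ciliated cell cannot be told apart.

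The primary cilium is a solitary, immotile, microtubule-based projection that most embryonic cells carry and that serves hedgehog signalling, among other pathways. Kinesin-II carries IFT trains outward and cytoplasmic dynein-2 returns them, the BBSome moves membrane proteins with these trains, and the transition zone at the ciliary base limits what enters and leaves. In mice, loss of intraflagellar transport or transition zone genes disturbs heart looping and septation, in part through the motile and sensory cilia of the node, which acts before the stage sampled here.

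Nearly all of these genes were expressed, at levels below those of a typical expressed gene. At 1 TPM or more in both libraries, 38 of the 39 members (97.4%) were detected, Bbs1 being the exception. Of all 21474 protein-coding genes, 12118 (56.4%) were detected. The members' median was 8.24 TPM in replicate 1 and 8.48 TPM in replicate 2 (8.36 ± 0.17, SD, n = 2), against 15.7 and 16.2 TPM (15.95 ± 0.396) over the 12118 detected protein-coding genes. Only 12 of the 39 members lay above that median. By mean TPM, 9 members reached 20 or more, 7 lay from 10 to 20, 14 from 5 to 10, and 9 below 5. Together they held 29396 and 22631 counts, or 0.0853% and 0.0896% of the counts in mouse genes. The member with the lowest count in a library, Tctn1, still had 50.6 counts, and the highest, Kifap3, had 2382.

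Among the 39 members, the roles differed in level. The IFT-B core subunits had a median of 21.8 and 23.4 TPM, and the Arl GTPases followed at 18.0 and 15.3 TPM. IFT-A stood at 11.0 and 11.7 TPM, the IFT-B peripheral subunits at 9.99 and 12.3 TPM, and the motors at 8.92 and 9.73 TPM. The transition zone genes had a median of 6.4 and 7.32 TPM, the BBSome subunits 6.13 and 6.64 TPM, and the chaperonin-like genes 3.21 and 4.43 TPM. None of the BBSome, chaperonin-like or transition zone genes reached 10 TPM in both libraries, whereas 15 members of the other roles did. In the order of the 39 means, 12 of the 38 steps between neighbours separated genes whose ranges over the libraries did not overlap, and 26 did not. No test was made of levels, since the smallest two-sided p of a sign-flip test over 2 libraries is 0.5.

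**Figure D1:**
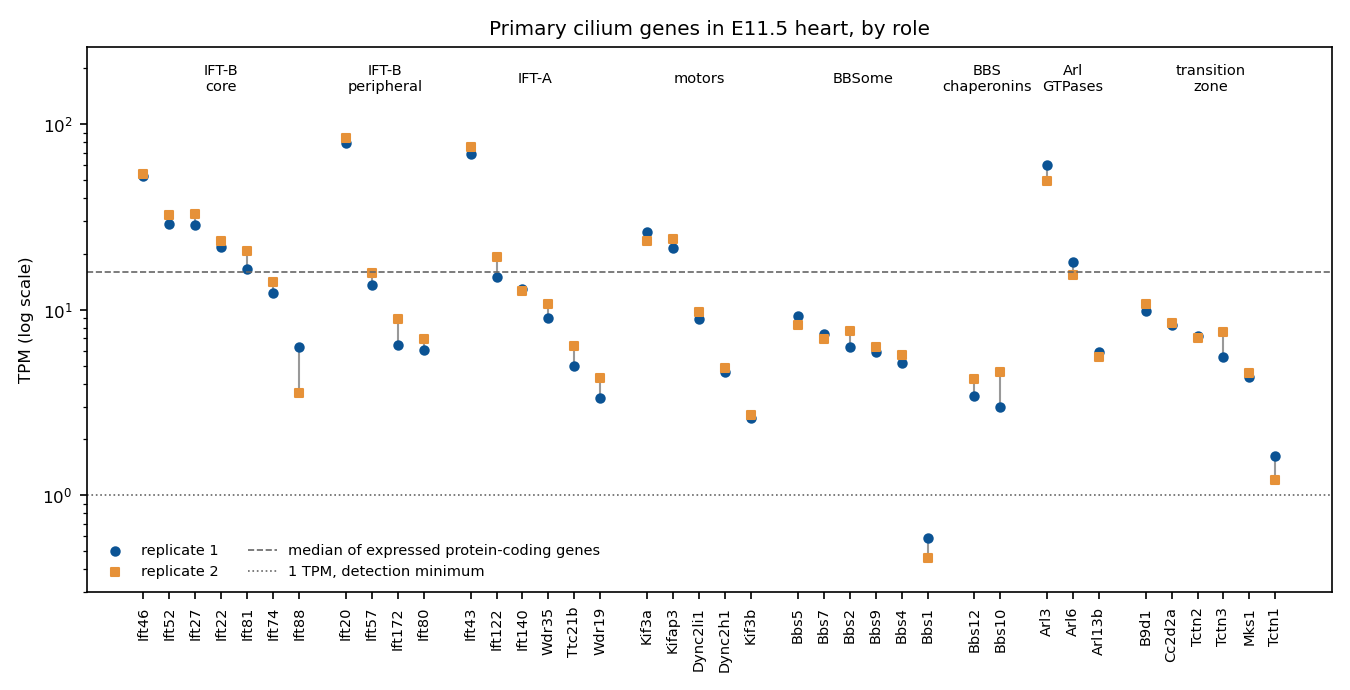
TPM of each of the 39 members on a log axis, grouped by role and ordered by mean within the role, with circles for replicate 1, squares for replicate 2 and a line joining them. The dashed line is the median of the expressed protein-coding genes (15.95 TPM) and the dotted line the detection minimum (1 TPM): 12 members lie above the dashed line, and only Bbs1 lies below the dotted line.

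Promoters were examined because many ciliary genes carry an X-box, an imperfect inverted repeat that RFX transcription factors bind. RefSeq promoters on GRCm38.p6, from 250 bases before the annotated start to 50 after it, were at hand for 35 of the 39 members (not for Dync2li1, Ift122, Ift81 and Ift80). On either strand, the arm GTTGCC occurred in 17 of the 35 (48.6%), against 14.9% of 9544 detected protein-coding genes and 14.1% of all 27025 genes with such a promoter. A full repeat was searched as GTNNCC followed by 0 to 3 bases and then NGNAAC, on both strands, which can take in the same arms. It occurred in 10 of the 35 (28.6%), against 6.81% of the detected protein-coding genes and 5.94% of all genes, and 20 of the 35 had the arm, the repeat or both. By role, the repeat was found in 4 of 6 transition zone genes, 3 of 6 BBSome genes, 2 of 6 IFT-B core genes and 1 of 3 IFT-B peripheral genes. It was found in 0 of 5 IFT-A genes, 0 of 4 motor genes, 0 of 3 Arl genes and 0 of 2 chaperonin-like genes. The 10 members with the repeat had a median of 6.86 TPM, and the 25 without it 8.74 TPM. In the other structural cilium genes described below, the arm occurred in 14 of 42 promoters (33.3%) and the repeat likewise in 14 of 42 (33.3%). The 10 sequences are shown because they are the matches behind the members' count. The capitals mark each repeat, on whichever strand it matched. Each is printed 5′ to 3′ along the gene's own strand, with up to 20 flanking bases that lie before the transcribed part, and with the bases between the repeats where there is more than 1.
Ift22: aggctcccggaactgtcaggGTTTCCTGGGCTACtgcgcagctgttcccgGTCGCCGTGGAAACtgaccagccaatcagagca
Ift74: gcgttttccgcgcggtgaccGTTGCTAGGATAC
Ift57: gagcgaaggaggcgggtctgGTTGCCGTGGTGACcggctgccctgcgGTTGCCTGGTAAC
Bbs1: GTTGCCAAGGCGAC
Bbs4: GTCGCCCGGGAAAC
Bbs7: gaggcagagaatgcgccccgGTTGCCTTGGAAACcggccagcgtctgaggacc
Mks1: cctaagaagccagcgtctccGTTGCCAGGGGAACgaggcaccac
Tctn1: GTTGCCCGGGCAAC
Tctn2: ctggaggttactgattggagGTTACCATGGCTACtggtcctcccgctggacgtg
Tctn3: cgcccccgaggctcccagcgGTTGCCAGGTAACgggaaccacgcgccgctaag

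These stretches lie at chr5:136908067-136908149 (+, Ift22), chr4:94614466-94614498 (+, Ift74), chr16:49699187-49699246 (+, Ift57), chr19:4906613-4906626 (-, Bbs1), chr9:59353472-59353485 (-, Bbs4), chr3:36613478-36613530 (-, Bbs7), chr11:87853171-87853214 (+, Mks1), chr5:122264411-122264424 (-, Tctn1), chr5:124598667-124598720 (+, Tctn2) and chr19:40612339-40612391 (-, Tctn3). With the RefSeq start at 0, the repeat began at -24 in Mks1, -62 in Tctn2, -63 in Ift22, -87 in Ift57, -121 in Bbs7 and -140 in Tctn3. Ift22 and Ift57 each had a second, separate repeat, which began at -33 in Ift22 and at -60 in Ift57. The GENCODE M21 start of Ift57 (49699233) lies before its second repeat, which is in the transcribed part by that annotation. In Bbs7, too, the GENCODE M21 start (36613477) differs from the RefSeq start. The repeat spanned the start in Ift74 and lay after it in Bbs1, Bbs4 and Tctn1. Of the RFX genes, Rfx7 (8.95 and 8.03 TPM), Rfx3 (7.46 and 6.04 TPM) and Rfx5 (4.92 and 5.79 TPM) were the highest, and Rfx4 had 2 and 1 counts. A match of letters is a description of the promoter and not a measured binding site.

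IFT-B is the complex that kinesin-II carries outward with tubulin and other cargo, and its core held some of the most abundant members. Ift46, an IFT-B subunit on chromosome 9 (44767908 to 44793447), had 52.2 and 53.7 TPM. Of this, 26.0 and 24.9 TPM came from the transcript Ift46-202, of 1317 bases. A further 16.4 and 18.1 TPM came from Ift46-209, a transcript of only 229 bases. Ift52, a central scaffold of the core, had 29.0 and 32.5 TPM, and Ift27, a Rab-like small GTPase that links IFT-B to BBSome exit, had 28.5 and 32.7 TPM. Ift22, the other Rab-like GTPase of the core, had 21.8 and 23.4 TPM. Ift81 and Ift74, the coiled-coil partners that bind tubulin, had 16.6 and 20.6 TPM and 12.2 and 14.1 TPM, which is 1.40-fold apart and within the spread allowed for pairs. Ift88, the tetratricopeptide subunit whose mutation causes polycystic kidneys in mice, was the lowest of the 7 core members at 6.28 and 3.55 TPM. It stood 6.50-fold below its partner Ift52 (log2 ratio of Ift88 over Ift52 -2.70 ± 0.698, SD, n = 2).

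Among the IFT-B peripheral subunits, Ift20 was the most abundant of all 39 members at 78.8 and 84.5 TPM. Ift20, on chromosome 11 (78536361 to 78541737), also acts at the Golgi, and it stood at the 87.6th percentile of the detected protein-coding genes. Its binding partner Ift57 had 13.5 and 15.7 TPM, 5.59-fold lower. Ift80 and Ift172, large scaffold subunits, had 6.10 and 6.98 TPM and 6.44 and 8.95 TPM, and their ranges overlapped. Ift20 was above Ift57 in both libraries.

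IFT-A drives return transport and brings receptors into the cilium, and its smallest subunit led it. Ift43, on chromosome 12 (86082541 to 86162459), had 69.0 and 75.6 TPM, the second highest value among the members. Ift122 and Ift140, WD40 subunits of the complex core, had 15 and 19.3 TPM and 12.9 and 12.6 TPM. Wdr35 had 9.07 and 10.8 TPM, and its WD40 relative Wdr19 had 3.36 and 4.28 TPM, so that Wdr35 was 2.60-fold higher. Ttc21b, the tetratricopeptide subunit of IFT-A, had 4.99 and 6.37 TPM, which put Ift43 12.8-fold above it. Counted over protein-coding transcripts alone, the IFT-A median was 6.80 TPM in place of 11.3 TPM, and Ift140 and Ift122 drew much of their TPM from other transcripts.

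The motors divided sharply between partners. Kif3a, a motor subunit of kinesin-II on chromosome 11 (53567379 to 53601967), had 26.3 and 23.4 TPM, and Kifap3, the adaptor that completes the trimer, had 21.6 and 24.1 TPM. Kif3b, the other motor subunit of the ciliary trimer, on chromosome 2 (153291413 to 153333390), had 2.61 and 2.70 TPM. Kif3a was therefore 9.35-fold above Kif3b in TPM (log2 ratio 3.22 ± 0.155, SD, n = 2) and also had the larger count, 1537 and 1038 counts against 413 and 301 for Kif3b. Kif3c, which can take the place of Kif3b beside Kif3a in neurons, had 3.75 and 5.54 TPM, and Kif3b was 1.72-fold below it, a difference that fell under the threshold for pairs in replicate 1 alone. Dync2li1, the light intermediate chain of dynein-2, had 8.92 and 9.73 TPM, 1.96-fold above the heavy chain gene Dync2h1 at 4.63 and 4.88 TPM. In counts the order of the dynein subunits was the opposite, 312 and 240 for Dync2li1 and 978 and 607 for Dync2h1, with effective lengths of 1225 bases for Dync2li1 and of 7406 and 6178 bases for Dync2h1.

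The BBSome, a coat-like complex that carries membrane proteins out of the cilium, had subunits at similar levels except for Bbs1. Bbs5 had 9.21 and 8.27 TPM, Bbs7 7.38 and 6.95 TPM, Bbs2 6.33 and 7.65 TPM, Bbs9 5.93 and 6.33 TPM and Bbs4 5.15 and 5.67 TPM. These 5 subunits thus spanned 5.15 to 9.21 TPM in replicate 1 and 5.67 to 8.27 TPM in replicate 2. Bbs1, the subunit that Arl6 binds to bring the complex to membranes, had 0.59 and 0.46 TPM from 92 and 51 counts. The deposited data list 1 transcript for Bbs1, of 17 exons and 5581 bases, on chromosome 19 (4886878 to 4906628). GENCODE M21 gives the gene 7674 exonic bases, more than this transcript holds, and the TPM of Bbs1 rests on this transcript alone. Bbs1 was 10.4-fold below Bbs4 (log2 ratio -3.38 ± 0.352, SD, n = 2) and 31.9-fold below Arl6. The other BBSome genes, which were not members, were higher: Ttc8 had 11.0 TPM in both libraries, and Bbip1 had 14.96 and 14.4 TPM. Of the chaperonin-like genes that assemble the BBSome, Bbs12 had 3.43 and 4.22 TPM and Bbs10 had 3.0 and 4.64 TPM, which did not differ beyond their spread. Their partner Mkks, no member, had 44.8 and 43.5 TPM.

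The Arl GTPases load and release ciliary membrane cargo. Arl3, which releases lipid-anchored proteins from their carriers inside the cilium, had 60.4 and 49.2 TPM and lies on chromosome 19 (46531096 to 46573198). Arl6, the BBSome recruiter, had 18.0 and 15.3 TPM, 3.28-fold below Arl3. Arl13b, the exchange factor that activates Arl3, had 5.91 and 5.58 TPM, 9.49-fold below it. The carrier gene Pde6d stood close to Arl3, at 52.5 and 52.9 TPM.

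The transition zone genes were all detected and mostly low. B9d1, a B9-domain protein, had 9.81 and 10.8 TPM, 2.31-fold above Mks1, another B9-domain protein, at 4.32 and 4.57 TPM. Cc2d2a, a coiled-coil protein of the same module, had 8.24 and 8.48 TPM and did not differ from B9d1 beyond the threshold for pairs. A transcript with no class in GENCODE M21 held 21.4% and 21.6% of the TPM of Cc2d2a. Of the tectonics, secreted or membrane-bound proteins of the zone, Tctn2 had 7.25 and 7.02 TPM and Tctn3 had 5.55 and 7.62 TPM. Tctn1 had 1.62 and 1.21 TPM from 94.8 and 50.6 counts, 5.10-fold below Tctn2. Of the exonic bases of Tctn1, 25.5% are shared with opposite-strand genes, mainly Hvcn1, and since the strand setting is not given, reads there cannot be assigned to either gene. The next largest overlap, in Ift57, covered 7.86% of its exonic bases, and only 6 members had any.

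In all, 24 pairs of partners or paralogs were compared, and 14 were apart. A pair was called apart when the genes' ranges over the libraries did not overlap and the mean TPM ratio passed 1.58-fold, the 95th percentile of the difference between the libraries over all detected genes. Detected protein-coding genes ran from 1.02 to 27100 TPM by mean. The share of apart pairs among other detected genes was not computed, so 14 of 24 cannot be read as particular to these partners. For Ift46 over Ift52, Dync2li1 over Dync2h1 and B9d1 over Mks1, the count ratio ran the opposite way to the TPM ratio, so these calls rest on the correction for length. The call of Ift46 over Ift52 also rests on short transcripts of Ift46. The largest transcripts alone had 26.0 and 24.9 TPM (Ift46-202) and 25.6 and 29.2 TPM (Ift52-201).

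Level and RNA length ran against each other among the members. The 7 members with an effective length under 1000 bases (Ift20, Ift43, Arl3, Ift46, Ift27, Ift22 and B9d1) had a median of 52.9 TPM, against 54.7 TPM for detected protein-coding genes of such length. The 13 members of 3000 bases or more had a median of 6.54 TPM, against 10.4 TPM for detected protein-coding genes of that length. Across the 39 members, Pearson's r between log2 length and log2 TPM was -0.653 and Spearman's rho -0.606, against -0.354 and -0.325 across the 12118 detected protein-coding genes. These are descriptions across genes, which are not independent replicates, and length itself enters the TPM. The sets were not filtered alike. Bbs1, long and below 1 TPM, is among the 39 members and the 13 long ones, whereas all comparison genes had 1 TPM or more. By CPM, counts scaled to library size without a correction for length, Kifap3 took the first place from Ift20.

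**Figure D2:**
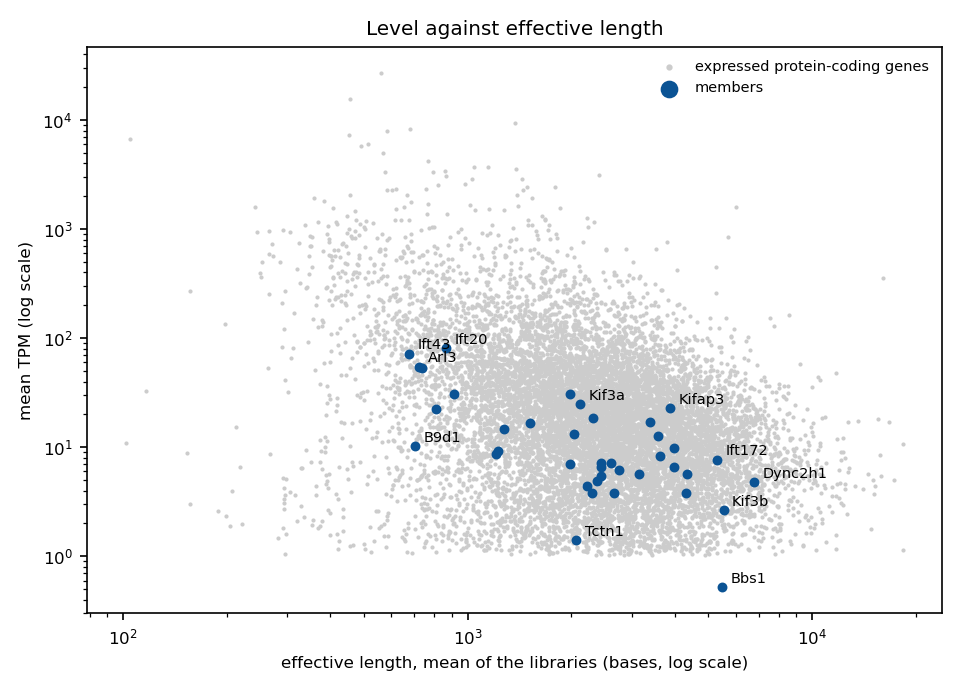
Mean TPM against mean effective length in bases, both on log axes, with the 39 members as dark points over the 12118 detected protein-coding genes in grey. The short members, Ift43 and Ift20 among them, lie at the upper left with short genes in general, and Kif3b and Bbs1 lie at the lower right.

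The transcript tables showed which RNAs made up these levels. The members had 179 listed transcripts, from 1 (11 members) to 12 (Ift46, Ift80 and Bbs9). The same transcript led in both libraries for 35 of the 39. The leading transcript was protein-coding in both libraries for 35 as well, but these are not the same 35, since they leave out Ift140 and take in Bbs12. Both counts include the 11 members with 1 listed transcript, all protein-coding, for which no other outcome was possible. Among the 28 members with several transcripts, the leading one differed between the libraries in Ift122, Bbs12, Tctn1 and Tctn2. Neither count was made for the other detected genes. The median share of a member's TPM in protein-coding transcripts was 92.6%, against 98.3% for the detected protein-coding genes, and 21 members had 90% or more in both libraries. Only 2 members (5.13%), Ift140 and Tctn2, had over 50% outside protein-coding transcripts in both, against 6.71% of the detected protein-coding genes.

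In Ift140 the processed transcript Ift140-207, of 15 exons and 2938 bases, held 61.4% and 64.1% of the TPM. The full protein-coding Ift140-201, of 30 exons and 5489 bases, held 28.0% and 35.7%, and the protein-coding TPM of Ift140 was 3.93 and 4.51. In Ift122 the processed transcript Ift122-204, of 16 exons, held 33.6% and 35.5%, close to the 39.2% and 32.5% of the protein-coding Ift122-201. A further protein-coding transcript, Ift122-203 of 29 exons and 4122 bases, held 19.4% and 24.9%. All protein-coding transcripts of Ift122 together held 59.4% and 57.4%, more than Ift122-204. Only in Ift140, of these IFT-A genes, did the shorter transcript annotated as non-coding exceed the protein-coding ones. The transcripts of Tctn2 are all annotated as non-coding in GENCODE M21, and the leading one differed between the libraries, Tctn2-201 with 75.2% in replicate 1 and Tctn2-207 with 88.9% in replicate 2. These are 2732 and 2733 bases long, and posterior means gave Tctn2-207 the lead in both.

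Ift88 gave a case where the gene's TPM and its coding TPM disagreed. The nonsense-mediated decay transcript Ift88-203, of 562 bases, held 39.0% of Ift88 in replicate 1 and 6.32% in replicate 2. The protein-coding Ift88-201, of 26 exons and 3088 bases, had 3.14 and 2.86 TPM, so the libraries were closer in the coding RNA than in the sum of 6.28 and 3.55. The effective length listed for Ift88 was 1940 bases in replicate 1 and 2821 in replicate 2. Kif3a held a steadier share of such RNA, with 20.4% and 20.6% in the nonsense-mediated decay transcript Kif3a-206.

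In Dync2h1 the short protein-coding Dync2h1-202, of 19 exons and 2892 bases, held 46.1% and 57.3% of the TPM. The full heavy chain Dync2h1-204, of 90 exons and 14264 bases, held 35.5% and 28.0%, or 1.64 and 1.36 TPM. Retained-intron transcripts held 29.5% and 41.9% of Bbs2 and 20.8% and 21.4% of Mks1. In Tctn1 the protein-coding Tctn1-201 held 76.3% in replicate 1 and 0% in replicate 2, where the nonsense-mediated decay transcript Tctn1-203 held 59.3%. With 50.6 counts in replicate 2, the split of Tctn1 is poorly determined, and protein-coding transcripts alone gave 1.24 and 0 TPM. Over the transition zone genes, counting protein-coding transcripts alone gave a median of 4.53 TPM in place of 6.86 TPM.

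**Figure D3:**
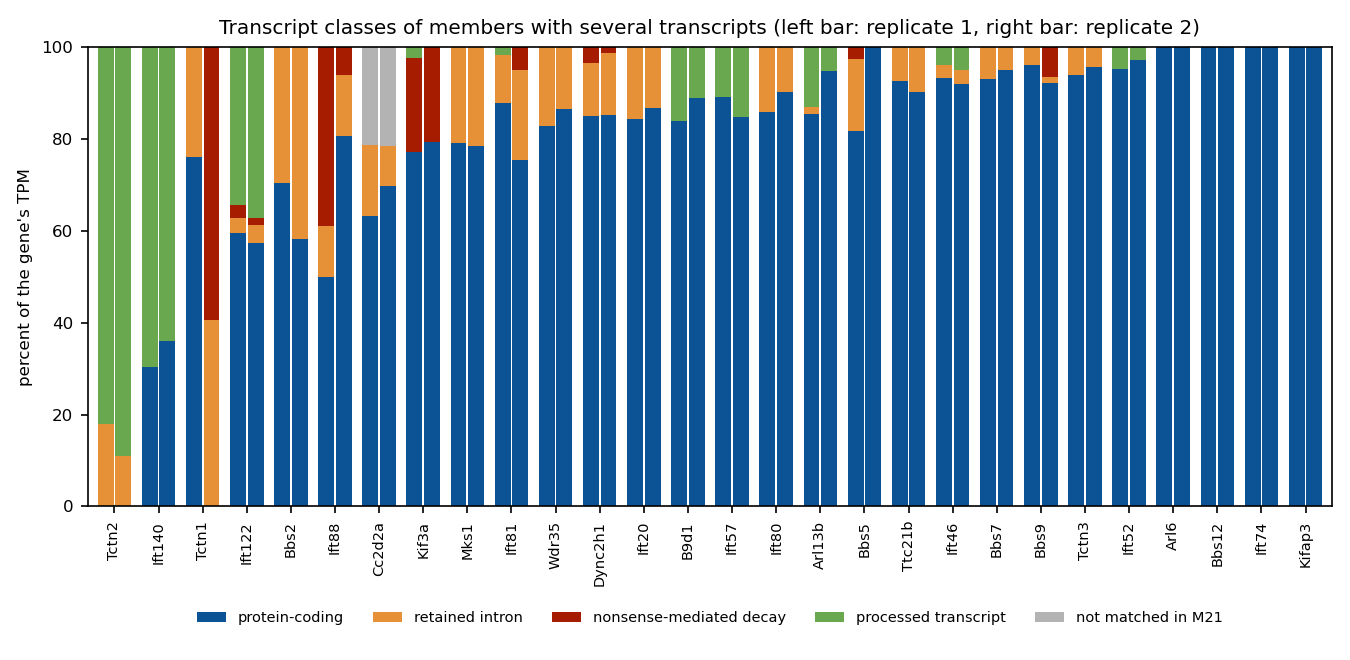
Percent of each gene's TPM by transcript class for the 28 members with more than 1 listed transcript, ordered from the lowest to the highest protein-coding share, with replicate 1 as the left bar and replicate 2 as the right bar of each gene. Tctn2 and Ift140 stand at the left with the lowest protein-coding shares, and Tctn1 and Ift88 show the widest differences between the bars.

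Between the libraries, the members kept close levels. The SD over the mean had a median of 8.34% among the members and 7.52% among the detected protein-coding genes, with 22 members under 10% and 5 at 20% or more. In an exact binomial test of counts, adjusted by Benjamini-Hochberg over all 16621 genes tested, 0 of the 39 members passed an adjusted p of 0.05 with a fold of 2 or more, where 4.52% of all genes tested did. Most of those were not detected protein-coding genes, of which 72 of 12116 were called. None passed with DESeq2 size factors or total counts as the scale either. In the binomial test 16 of the 39 members had an unadjusted p under 0.05. So had 7634 of all 16621 genes tested and 6115 of the 12116 detected protein-coding genes tested, so this count does not set the members apart. Without the fold minimum 15 members (4 higher in replicate 1, 11 higher in replicate 2) passed, against 39.1% of all genes tested. This test covers counting error between these 2 libraries alone and says nothing of conditions.

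The log2 ratio of replicate 1 over replicate 2 in counts had a median of -0.085 over the members and 0.00 over all genes tested, and it ran from -0.58 (Bbs10) to 0.44 (Tctn1). Arl3 was higher in replicate 1, with 1246 counts against 717 in replicate 2 (log2 ratio 0.34, exact binomial test, adjusted p = 2.81e-06). Ift172 was lower in replicate 1, with 975 counts against 957 in the shallower replicate 2 (log2 ratio -0.43, exact binomial test, adjusted p = 1.21e-09). By role, all 6 IFT-A genes had a negative ratio and 4 of them passed without a fold minimum (Ift122, Wdr35, Wdr19 and Ttc21b), while all 3 Arl genes had a positive ratio and 2 passed (Arl3 and Arl6). All 4 IFT-B peripheral genes (2 passing) and both chaperonin-like genes (1 passing) were negative too, as were 26 of the 39 members in all. Of all genes tested, 8324 of 16621 had a negative ratio. So had 6616 of the 12116 detected protein-coding genes tested, whose median log2 ratio was -0.023. The deposited TPM intervals did not overlap between the libraries for 10 of the 38 detected members (26.3%), against 27.1% of detected genes. Hepatic markers moved with the libraries, all 4 of 4 being called higher in replicate 1, with a summed level of 141 TPM in replicate 1 and 24.2 TPM in replicate 2. The erythroid markers were also higher in replicate 1, summing to 38830 and 32310 TPM, and the 3 foregut markers tested were all higher in replicate 1 with an adjusted p under 0.05 (exact binomial test), the 4 listed summing to 5.92 and 2.80 TPM. All 5 cushion mesenchyme markers had a negative ratio, with sums of 596 and 692 TPM, and so had all 4 endocardial markers, with sums of 132 and 154 TPM. Their part in the members' ratios was not tested.

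**Figure D4:**
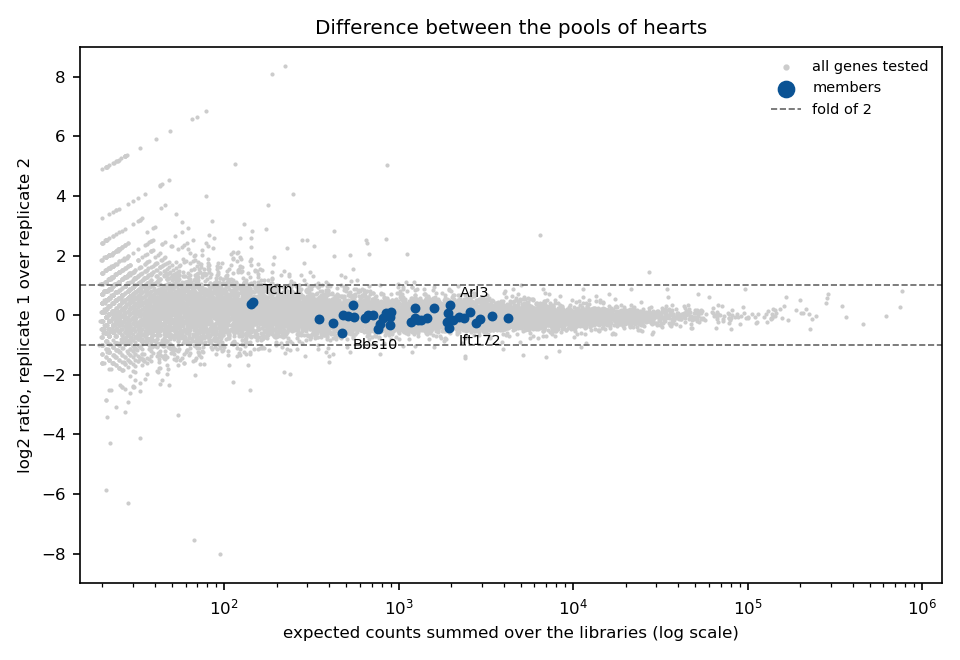
Log2 ratio of counts, replicate 1 over replicate 2, against the counts summed over the libraries on a log axis, with the 39 members as dark points over the 16621 genes tested in grey. All members lie between the dashed lines that mark a fold of 2, from -0.58 in Bbs10 to 0.44 in Tctn1.

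Other genes of the cilium gave the members a frame. In 6 lists of other structural genes together (IFT-B, motors, BBS, transition zone, basal body and ciliary membrane), 43 of 45 genes were detected, and their median was 8.93 and 8.42 TPM, near the 8.24 and 8.48 TPM of the members. The members' order of roles did not carry over. The median was 4.84 and 5.27 TPM for the 7 other IFT-B genes and 20.7 TPM in both libraries for the 4 other BBS genes. It was 3.75 and 5.54 TPM for the other motor subunits and 5.90 and 5.56 TPM for the other transition zone genes. Hspb11 (IFT25), the partner of Ift27, had 28.5 and 26.0 TPM and did not differ from it beyond the threshold for pairs. Of the other IFT-B genes, Cluap1 had 9.78 and 9.73 TPM and Ttc30b 6.85 and 6.88 TPM, while Ttc30a2 had 0.80 and 0.55 TPM, a level that is uncertain since reads may be divided with its close paralogs. The dynein-2 genes Tctex1d2 (19.2 and 18.8 TPM) and Wdr34 (12.9 and 13.0 TPM) stood above Dync2h1, and the kinesin gene Kif17 had 0.33 and 0.45 TPM. Lztfl1, which regulates BBSome traffic, had 26.5 and 27.0 TPM.

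The other transition zone genes were all detected (12 of 12), led by the membrane protein genes Tmem107 (20.7 and 19.5 TPM) and Tmem216 (16.04 and 17.4 TPM) and by B9d2 (16.9 and 15.9 TPM), the B9-domain partner of B9d1, with Nphp4 the lowest at 1.26 and 1.29 TPM. All 8 basal body genes were detected, with Odf2 at 44.7 and 41.3 TPM, Cep89 at 24.1 and 24.6 TPM and Fbf1 at 14.8 and 15.2 TPM, down to the kinase gene Ttbk2 at 2.73 and 2.35 TPM. All 9 ciliary membrane genes were detected, where Unc119b (13.9 and 15.9 TPM) and the phosphatase gene Inpp5e (10.4 TPM in both libraries) followed Pde6d, and Adcy3, the ciliary adenylyl cyclase, was lowest at 2.79 and 2.80 TPM. All 8 genes of cilium disassembly were detected, with the mitotic kinase gene Aurka at 82.5 and 85.4 TPM, Nek2 at 19.9 and 23.8 TPM, Hdac6 at 17.5 and 20.1 TPM and Ccp110 lowest at 3.34 and 4.07 TPM. Several of these genes also act outside the cilium, in mitosis or at the centrosome.

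Genes of motile cilia were mostly absent from the detected set, in contrast to the members. Of 14 motile cilium genes, 3 were detected (Rsph9 at 4.91 and 4.52 TPM, Ccdc40 at 2.73 and 2.95 TPM and Rsph1 at 1.25 and 1.31 TPM). Foxj1, the regulator of motile ciliogenesis, had 4 and 1 counts, and Mcidas, which specifies multiciliated cells, had 0 counts in both libraries, which allows up to 0.0871 and 0.119 CPM (3 counts of the library's counts in mouse genes). Of 8 genes through which hedgehog signals pass at the cilium, 6 were detected, with the receptor gene Smo at 15.9 and 15.4 TPM, Sufu at 15.2 and 17.6 TPM and Gli3 at 8.24 and 6.70 TPM. The target gene Gli1 was lowest at 0.78 and 0.52 TPM.

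**Figure D5:**
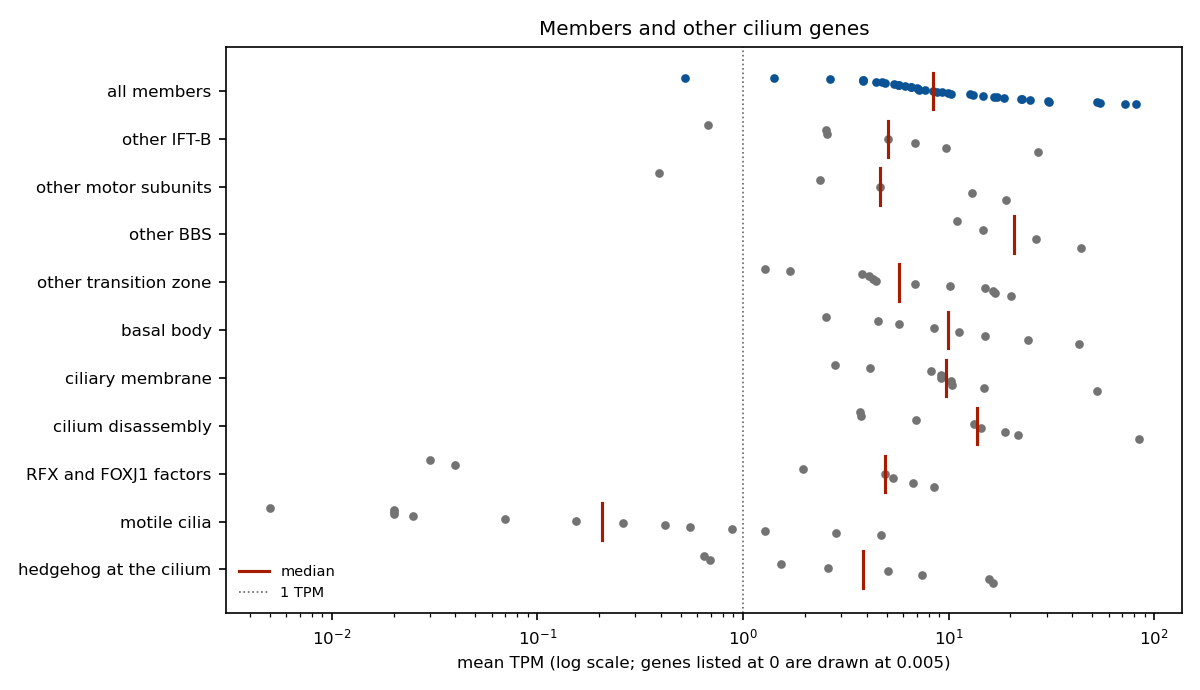
Mean TPM over the libraries, on a log axis, of each gene in the members (top row) and in 10 lists of other cilium genes, with a vertical bar at each list's median. The medians of the members and of the structural lists lie between 4.64 and 20.7 TPM, whereas most motile cilium genes lie left of the dotted line at 1 TPM.

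The members are scattered in the genome. They lie on 16 chromosomes, with at most 7 on 1 chromosome, and 9 of the 39 (23.1%) start within 1000 bases of a protein-coding gene that runs the other way, against 16.3% of the 12118 detected protein-coding genes. Starts here are the outer edges of the GENCODE M21 genes, and not the RefSeq starts used for promoters. The closest such neighbours were Ift20 with Tnfaip1, 29 bases apart, and Ift46 with Arcn1, 63 bases apart. The RefSeq promoters of Ift46 (44772759 to 44773058) and Dync2h1 (7177009 to 7177308) lie over 1000 bases inside the gene edges of 44767908 and 7184446. Neighbours were not checked against RefSeq starts. The others were Dync2h1 with Dcun1d5, Ift122 with Mbd4, Tctn3 with Entpd1, Arl3 with Sfxn2, Ift80 with Smc4, Ift140 with Cramp1l, and Bbs12 with Cetn4, whose starts overlap. By mean TPM, Ift20, Arl3 and Ift46 ranked 1, 3 and 4 among the 39 members. The others with such a neighbour ranked from 11 (Ift122) to 34 (Bbs12), and a link with level was not tested.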

How the data were processed

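Total RNA of E11.5 heart was measured in 2 libraries from separate biosamples. Each library started from 10 ng of mirVana-extracted RNA with a size range of over 200 (unit not stated) and received spike-in RNAs, per the labels. The authors deposited a gene and a transcript table per library. Their columns, per the file headers, are expected counts (reads estimated per feature and not normalized), TPM, the posterior means of these, TPM interval bounds and, per transcript, the percent of the gene's TPM. The deposited texts name assembly mm10 with annotation M4. The aligner is not given in the sources used here. The same holds for the quantifier, the level of the intervals and the strand setting, so antisense reads cannot be told apart. Beside 43346 mouse genes, each gene table has 97 rows for spike-ins and 26248 for tRNAs, which hold 32 and 14 counts. Spike-ins held 3170242 and 2381032 counts and 160209 and 170559 of the deposited TPM in replicates 1 and 2, so all mouse TPM are lower by that share.

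Symbols, transcript classes and positions were taken by identifier from GENCODE M21 on GRCm38, which matched 42462 mouse genes (97.96%), and promoters from RefSeq. Detection was 1 TPM or more in both libraries. Expected counts were rounded to whole numbers and compared by an exact two-sided binomial test on edgeR 4.0.16 TMM library sizes, for genes with 20 or more summed counts, after adding 0.5 to each count for the ratio. edgeR's quasi-likelihood test has no contrast in a single group. The libraries are not duplicates, with a chi-square of 24.8 per gene between their counts. DESeq2 1.42.0 size factors, total counts, posterior means, protein-coding transcripts alone, TPM over mouse genes alone, other thresholds and each library alone were tried. R 4.3.3, Python 3.11.15, numpy 2.4.6, pandas 2.3.3, scipy 1.17.1, statsmodels 0.14.6 and matplotlib 3.10.9 were used.

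Every member is named, and of each list of other cilium genes the 3 highest and the lowest by mean TPM. Genes named beyond these are partners in the gene pairs, neighbours of members or Hvcn1, which overlaps one, and Foxj1, named after its values were seen. The rule for members uses no measured value, but the members, lists, pairs and motif were chosen with earlier results of these data known. Protein sequences were not used here.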

Additional observations from a re-analysis of the deposited data

How the results depend on the processing

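The 38 detected members became 15 at a threshold of 10 TPM. The members' median of 8.36 TPM was 6.86 TPM over protein-coding transcripts alone and 10.02 TPM over mouse genes alone, and 8.24 to 8.48 TPM in the libraries taken singly. Over mouse genes alone, the median was 27.1 TPM for the IFT-B core, 13.4 for the IFT-B peripheral subunits, 13.6 for IFT-A, 11.2 for the motors, 7.65 for the BBSome, 20.0 for the Arl GTPases and 8.22 for the transition zone. This setting multiplies every TPM of a library by 1 factor. Over protein-coding transcripts alone, it was 6.80 TPM for IFT-A, 5.58 for the BBSome and 4.53 for the transition zone. With posterior mean TPM it was 12.0 for IFT-A and 7.15 for the BBSome. Without the fold minimum, 15 members were called between the libraries in place of 0. The count of members above the median of expressed genes (11 to 12), the count of gene pairs apart (13 to 15), the median ratio between the libraries (-0.088 to -0.078) and the counts of leading transcripts changed little under all alternatives run. Of the single pairs, Kif3b over Kif3c was no longer apart after adding 1 to the TPM values (log2 ratio -0.61) or without replicate 2 (-0.52). Ift122 over Ift140 (1.24) and Cc2d2a over B9d1 (-0.68) were apart over protein-coding transcripts alone. With transcripts of no class in GENCODE M21 counted too, an alternative chosen after seeing the data, Cc2d2a over B9d1 was not apart (-0.27). The pairs with Tctn2 gave no ratio there, since it has no such transcript. No pair called apart reversed. No paired analysis was possible because there is a single group. The planned protein features were not run. With 2 libraries, an SD has 1 degree of freedom, and Bbs1 and Tctn1, at 50.6 to 94.8 counts, have the least certain levels.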
